A study of Homo sapiens with 4 samples.

Results

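Open chromatin was examined at 8 genes that build or border the inner plaque of desmosomes. These were JUP, PKP1, PKP2, PKP3, DSP, PPL, EVPL and PERP, grouped by what their proteins do. A peak was assigned to a gene when its summit lay in the gene body or within 50 kb of a GENCODE transcription start site (TSS) of that gene. At a −log10 q of 10 or more, the threshold used for open regions throughout (regions called strongest have the highest −log10 q), the windows of the 8 genes held 66 of the 62343 regions in the list of p63-expressing cells and 46 of the 56680 regions in the list of control cells. With every deposited peak counted, the windows held 110 of 109486 and 88 of 101142 peaks, respectively. No region fell into the windows of more than 1 of the genes.

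The cells were BJ cells, an established line of human dermal fibroblasts, with an integrated reverse tetracycline transactivator and a retroviral, doxycycline-inducible construct. Control cells (CTR) expressed KLF4 alone. The cells called p63 expressed DNp63alpha, the ΔNp63α isoform, joined to KLF4 by a self-cleaving peptide, so that KLF4 was present in both groups. Accessibility was assessed after 72 h of induction by ATAC-seq, which reads out where a transposase can insert adapters into DNA. Each group had 2 samples, which were separate rounds of induction of the same polyclonal lines. The authors deposited 1 peak list per group, and neither list holds values of single replicates, so no difference below could be set against the spread between replicates and no test was made. The reads at each summit were solved from the values of the peak caller and are given with exact Poisson 95% intervals, which cover counting error only. At regions called open in a single list, the threshold that selects them also bears on whether these intervals overlap. Background coverage was near equal, with 1.18 CTR and 1.13 p63 reads. As a check of the cell type, 8 of 10 fibroblast genes had a region within 1 kb of a TSS in both lists, with COL3A1 and PDGFRA lacking one. Of 10 keratinocyte genes, 1 (CDH1) had such a region in the CTR list.

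Desmosomes are spot junctions that tie the keratin filaments of neighbouring epithelial cells together. Their cadherins bind plakoglobin (JUP) and the plakophilins (PKP1 to PKP3), which are armadillo-repeat proteins of the plaque, and these in turn bind desmoplakin (DSP), a plakin that anchors the keratin filaments. Periplakin (PPL) and envoplakin (EVPL) are plakins of the cornified envelope that associate with the desmosomal plaque in differentiating epidermis, and PERP is a membrane protein of desmosomes in stratified epithelia and a known target of p53 and p63.

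In these windows, 23 of the 66 regions of the p63 list had no counterpart at the threshold in the CTR list and were called p63-only (34.8%, Wilson 95% interval 24.5 to 46.9%), beside 23.9% over the whole p63 list. In the opposite direction, 4 of the 46 regions of the CTR list were CTR-only (8.7%, 3.43 to 20.3%), beside 16.5% over the whole CTR list. Of the 23 p63-only regions, 10 lay at PKP1. The Wilson intervals treat regions as independent and cover counting error only, so such clustering by gene is not covered. Without PKP1 the count was 13 of 51 (25.5%), close to the share of the whole list. No CTR peak of any strength overlapped 8 of the 66 regions (12.1%, 6.27 to 22.1%), beside 12.0% of the whole list. None of the 46 CTR regions lacked a peak in the p63 list, beside 3.29% of all CTR regions. The p63-only regions had a median of 30.0 summit reads and the shared regions of the p63 list 49.0 reads. Over the whole p63 list these medians were 22 and 39 reads, and the threshold that defines both classes bears on them.

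The p63-only regions were spread over 6 of the 8 genes, whereas 58.2% of 20033 protein-coding genes had at least 1 such region in a window drawn by the same rule. PKP1 had 10, EVPL 4, PKP3 and PPL 3 each, PKP2 2 and DSP 1, and JUP and PERP had none. At least as many as at PKP1 were found at 30 protein-coding genes (0.150%), PKP1 included, while 5.92% of genes had at least as many as EVPL and 13.3% at least as many as PKP3 or PPL. These counts and ranks take no account of how many regions a window holds. The median gene had 5 regions of the p63 list, against 15 at PKP1, 10 at PPL, 9 at EVPL and PKP3, 8 at DSP and 3 at PKP2. At least as many were held by 2.43% of genes for PKP1, 13.3% for PPL and 18.5% for EVPL and PKP3. A region of the p63 list without any CTR peak was present at PKP1, PKP2, PPL and EVPL, beside 37.1% of all protein-coding genes. CTR-only regions were found at PKP1, PKP2 and PKP3, beside 41.9% of all protein-coding genes. The windows also covered other genes: the protein-coding TSS nearest to the summit belonged to the member itself for 13 of the 23 p63-only regions and for 2 of the 4 CTR-only regions.

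**Figure D1:**
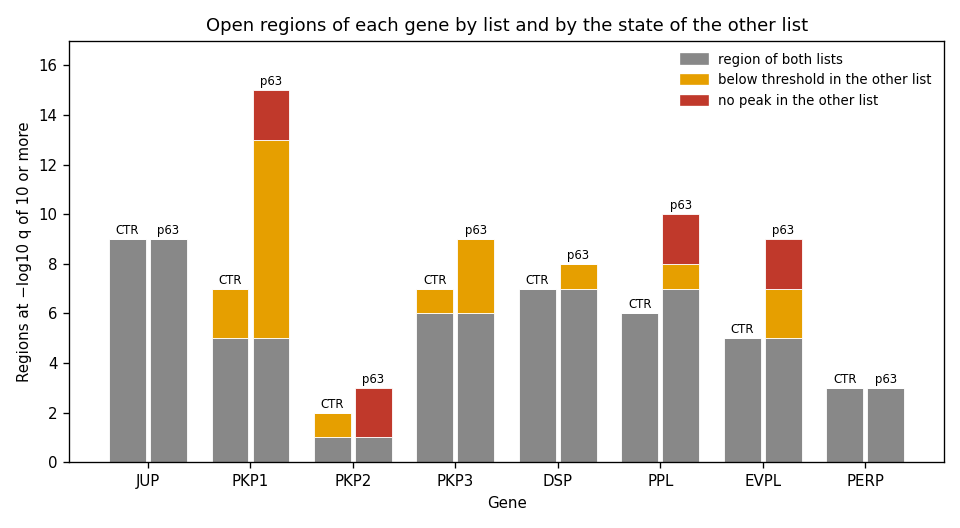
Number of regions at a −log10 q of 10 or more in the window of each gene, with a bar for the CTR list and a bar for the p63 list, coloured by the state of the other list. PKP1 rises from 7 to 15 regions, with 10 of the 15 p63-only, and JUP and PERP hold only regions of both lists.

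**Figure D2:**
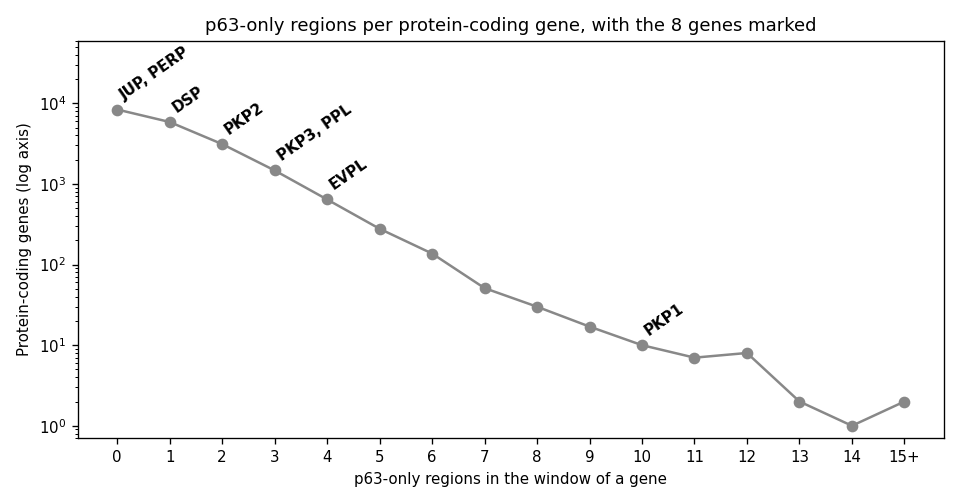
Number of protein-coding genes (log axis) by the number of p63-only regions in their window, with the 8 genes marked above their number. PKP1 stands at 10 regions, a number reached or passed by 30 of 20033 genes, and the other 7 genes lie between 0 and 4.

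At the canonical TSS, the members fell into different states. A region of both lists lay within 1 kb of the canonical TSS of DSP, JUP, PKP3 and PERP, 4 of the 8 genes, beside 56.7% of all protein-coding genes. EVPL had such a region in the p63 list alone, without a CTR peak of any strength, which was the case for 0.414% of protein-coding genes. PPL had a p63-only region 1.74 kb into the gene. PKP1 and PKP2 had no region within 3 kb of the canonical TSS in either list.

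**Figure D3:**
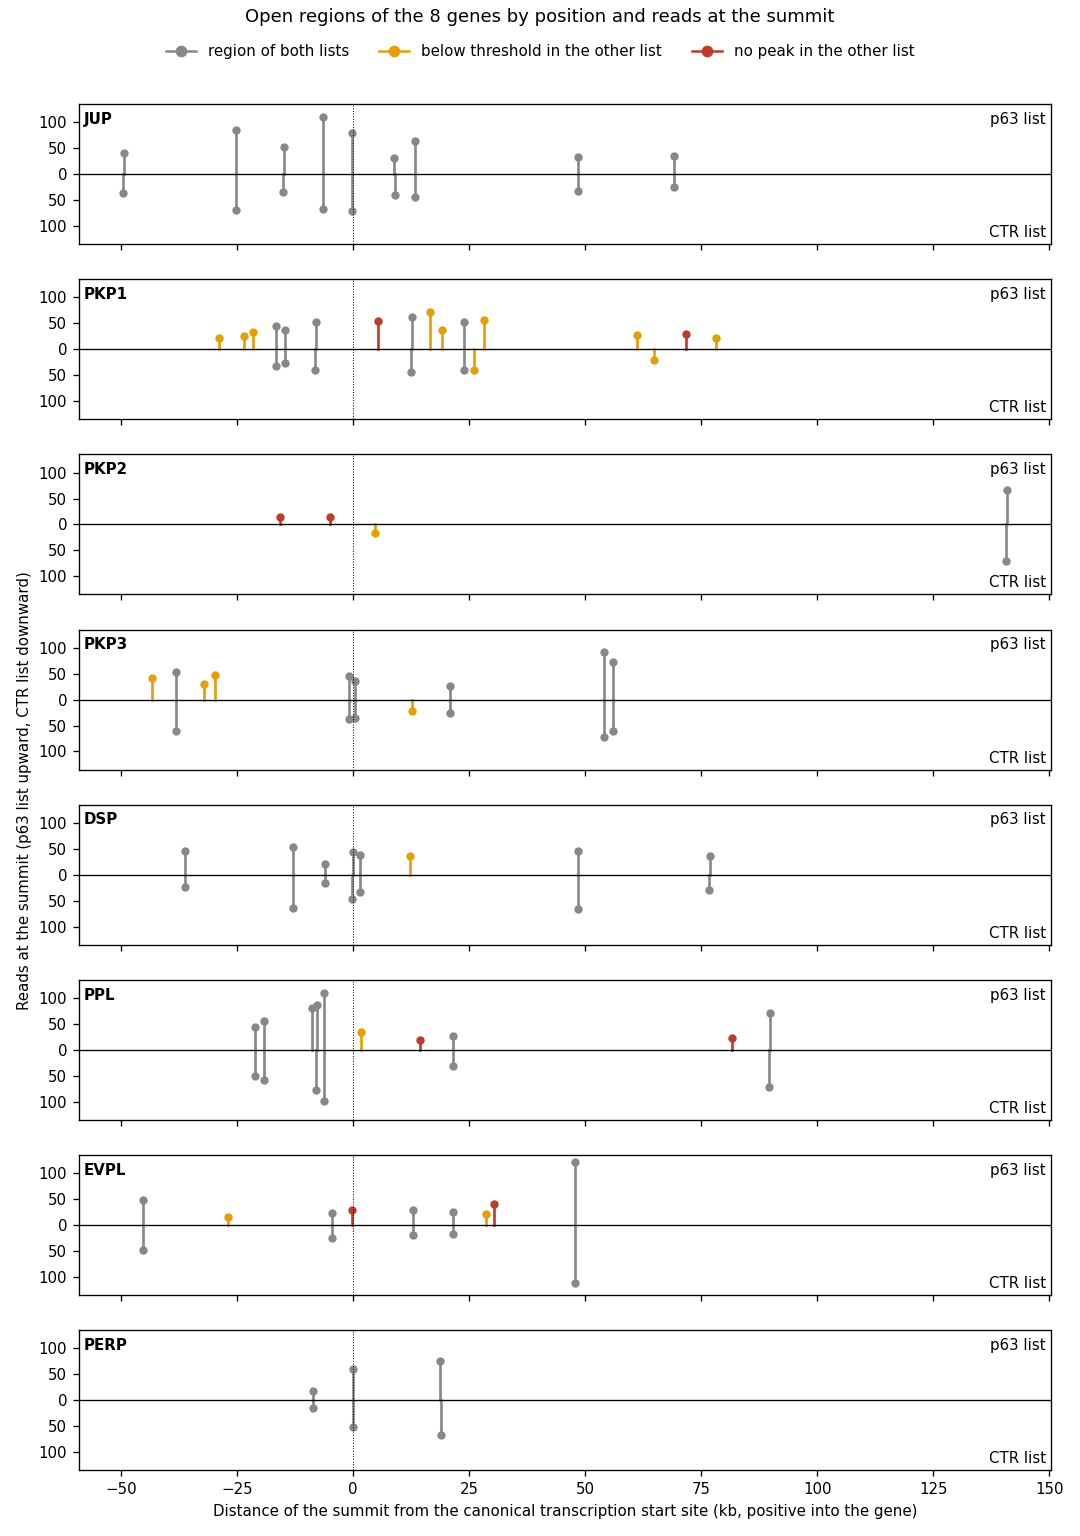
Each line is a region at a −log10 q of 10 or more, placed by the distance of its summit from the canonical TSS (kb, positive in the direction of the gene), with its reads at the summit drawn upward for the p63 list and downward for the CTR list. Shared regions pair up around the horizontal line at JUP, DSP and PERP, whereas PKP1 carries many lines in the p63 list without a CTR line at the same place.

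The sequences at 7 places carry the results that follow. For regions of the p63 list, 101 bases centred on the summit are given on the plus strand of GRCh38. Capitals mark the best p53/p63 family site, a stretch of 20 bases made of a pair of decamers whose C and G cores were held fixed, with the number of other positions that differ from the consensus given beside the name. For the site in PERP, which lay in no peak, only its 20 bases are shown and capitals mark the fixed cores. The first 3 are p63-only regions with a site of at most 3 mismatches, the next pair had a site of 4 mismatches, and the strongest PKP1 region had none within these bases.
PKP1 intron 2, chr1:201311771-201311871, 3 mismatches: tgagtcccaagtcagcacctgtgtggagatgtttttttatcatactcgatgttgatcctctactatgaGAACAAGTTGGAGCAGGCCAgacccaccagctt
PKP2 upstream, chr12:32901568-32901668, 3 mismatches: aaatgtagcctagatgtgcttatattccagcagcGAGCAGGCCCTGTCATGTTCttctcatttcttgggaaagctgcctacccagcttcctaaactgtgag
PPL intron 1, chr16:4922731-4922831, 2 mismatches: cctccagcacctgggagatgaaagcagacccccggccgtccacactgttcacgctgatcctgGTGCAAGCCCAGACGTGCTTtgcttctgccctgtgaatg
DSP intron 1, chr6:7553844-7553944, 4 mismatches: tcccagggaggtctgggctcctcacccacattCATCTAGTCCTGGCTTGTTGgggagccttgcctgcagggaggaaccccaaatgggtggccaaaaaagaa
PPL intron 1 near the TSS, chr16:4935356-4935456, 4 mismatches: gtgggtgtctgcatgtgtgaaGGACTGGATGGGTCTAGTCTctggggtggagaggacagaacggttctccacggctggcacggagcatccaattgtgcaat
PKP1 intron 1, chr1:201288842-201288942: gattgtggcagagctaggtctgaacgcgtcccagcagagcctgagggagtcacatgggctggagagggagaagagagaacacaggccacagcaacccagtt
PERP intron, chr6:138104070-138104089, 1 mismatch: gaaCaaGctggagCttGcct

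JUP (ENSG00000173801.17, chr17:41754604-41786931, minus strand) encodes plakoglobin, the armadillo protein that binds the tails of the desmosomal cadherins. Its 9 CTR regions and 9 p63 regions were all shared. The region at the canonical TSS, with the summit 114 bp upstream, was the strongest of the CTR list and had 71 CTR reads at the summit (95% interval 55.5 to 89.6) and 80 p63 reads (63.4 to 99.6). The strongest p63 region, chr17:41792656-41793532, lay 6.54 kb upstream and had 110 reads (90.4 to 133) against 67 in the CTR list (51.9 to 85.1). The intervals overlapped at the promoter and did not overlap at the upstream region. Its fold enrichment, the ratio of the summit to the local background, was 11.9 against 10.6, since the local background was higher too (8.3 against 5.42 reads). Over the 9 paired regions the ratio of summit reads (p63/CTR) ranged from 0.756 to 1.64, with a median of 1.21.

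PKP1 (ENSG00000081277.13, chr1:201283452-201332993, plus strand) encodes plakophilin 1, the plakophilin of suprabasal epidermis. It had 7 CTR regions and 15 p63 regions, of which 5 were shared, 8 matched a weaker CTR peak that missed the threshold and 2 matched none. At least as many regions in the p63 list were found at 2.43% of protein-coding genes. The p63 regions without a CTR peak were chr1:201288604-201289127 in intron 1, 5.39 kb from the TSS, and chr1:201354965-201355680, beyond the end of the gene and 22.4 kb from the TSS of TNNT2. The former had the highest −log10 q of the PKP1 regions in the p63 list, though not the most reads, with 54 summit reads (40.6 to 70.5) at 13-fold enrichment (−log10 q of 43.3). The latter had 30 reads (20.2 to 42.8) and a −log10 q of 15.7. For neither does the CTR list give a read count, since it holds no coverage outside its peaks.

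The other 8 p63-only regions of PKP1 formed a group upstream of the gene, a group in intron 2 and a group beyond its end. The largest gain in reads lay in intron 2. At chr1:201299987-201300504, 16.7 kb into the gene, the summit had 20 CTR reads (12.2 to 30.9) and 71 p63 reads (55.5 to 89.6), and the −log10 q was 7.01 and 40.9. At chr1:201302566-201302849, 19.2 kb into the gene, the counts were 15 (8.4 to 24.7) and 37 (26.1 to 51). At chr1:201311564-201311987, 28.3 kb into the gene, the counts were 28 (18.6 to 40.5) and 56 (42.3 to 72.7). The intervals of the CTR and p63 lists did not overlap at any of these 3 regions. The counts of the last compare different places, with the CTR summit at chr1:201311190 and the p63 summit at chr1:201311821. A p63 peak below the threshold covered that CTR summit with 34 reads (23.5 to 47.5). The last region holds the site of 3 mismatches printed above.

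Upstream, the region at chr1:201254526-201254789 had 12 CTR reads and 22 p63 reads. That at chr1:201259589-201260376 had 9 and 25, and that at chr1:201261643-201262017 had 15 and 33. All 3 were higher in the p63 list, but their intervals overlapped between the lists. Beyond the gene, chr1:201344500-201345242 had 9 reads (4.12 to 17.1) against 28 (18.6 to 40.5), intervals that did not overlap, and chr1:201361430-201362017 had 14 against 21. The CTR-only regions of PKP1 were of different kinds. At chr1:201309468-201309719 in intron 2, the summit had 39 CTR reads (27.7 to 53.3) and 23 p63 reads (14.6 to 34.5). At chr1:201348224-201348528, it had 20 CTR reads and 21 p63 reads, and the region fell below the threshold in the p63 list (−log10 q of 10.8 and 7.76) with a local background of 3.77 reads against 2.28.

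The peak caller takes the local background from the reads around a peak. At PKP1 it was higher in the p63 list at all 15 paired regions, with ratios of 1.16 to 1.99 and a median of 1.57. It was at least 1.5 times higher at 9 of the 15, beside 4.28% of all paired regions. Neighbouring regions can share much of this background, as at 16.7 and 19.2 kb into the gene (7.48 and 7.34 p63 reads, 3.76 and 3.71 CTR reads). The 15 are therefore not independent, and reads of the peaks themselves may count in it. Summit reads were higher in the p63 list at 14 of the 15 (median ratio 1.5), and at least 2 times higher at 6. These 6 include the intron 2 pair whose summits lay at different places. The strongest CTR region of PKP1, chr1:201295817-201296432 in intron 2, had 44 CTR reads and 62 p63 reads, whereas its fold enrichment was 9.9 and 8.5. Thus summit reads and fold enrichment went in opposite directions there. Among the 113 paired regions within 1000 kb of the TSS of PKP1 but outside its window, the median ratio was 1.1 for summit reads and 1.02 for the local background, and 5 had a local background at least 1.5 times higher. The part of the local background in the p63-only calls of PKP1 was not tested.

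**Figure D4:**
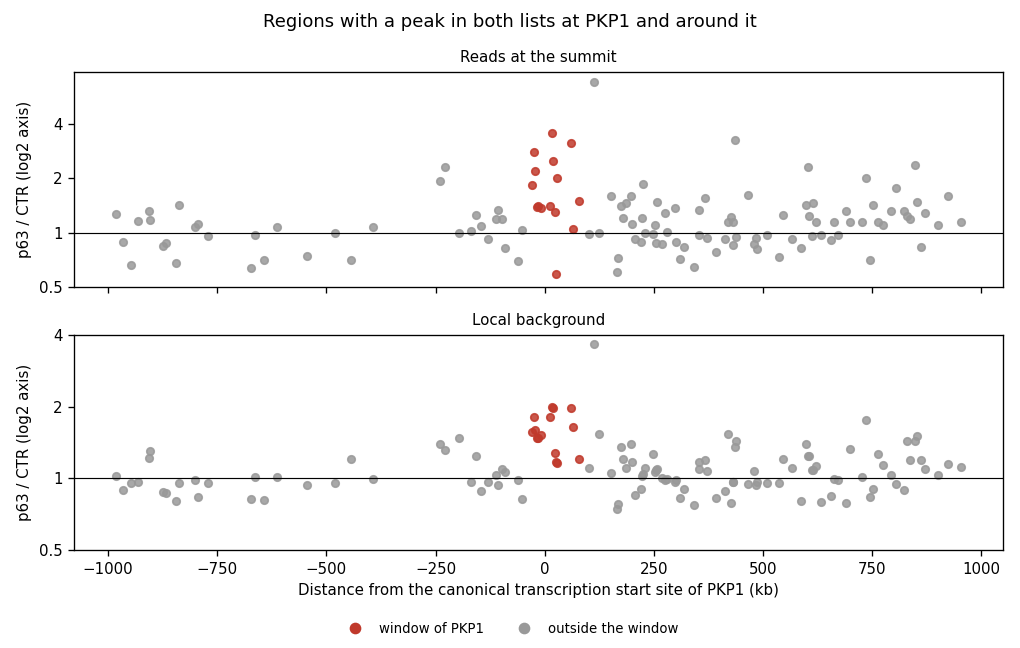
Ratio of p63 to CTR (log2 axis) for summit reads and for the local background at regions with a peak in both lists, by distance from the canonical TSS of PKP1 (kb), with the window of PKP1 in red and its flanks in grey. The red points have median ratios of 1.5 and 1.57, and the 113 grey points of 1.1 and 1.02.

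PKP2 (ENSG00000057294.18, chr12:32790745-32896798, minus strand) encodes plakophilin 2, the plakophilin of simple epithelia and of the heart. Its window was the poorest of the 8 in the CTR list, with 2 regions against 3 in the p63 list, and the only shared one lay at the TSS of YARS2 with 70 CTR reads and 66 p63 reads. The p63-only regions, chr12:32901531-32901684 at 4.84 kb upstream and chr12:32912523-32912797 at 15.8 kb upstream, had 15 reads each (8.4 to 24.7) and a −log10 q of 10.7, and neither overlapped a CTR peak. They sit at the lowest number of reads of any region in either list, just above the threshold. The former holds a site of 3 mismatches whose centre lies 6 bp from the summit. In the opposite direction, chr12:32891747-32892423 in intron 1 was CTR-only with 16 CTR reads (9.15 to 26.0) and 7 p63 reads (2.81 to 14.4), intervals that overlapped.

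PKP3 (ENSG00000184363.10, chr11:392614-404908, plus strand) encodes plakophilin 3, which is found in the desmosomes of most epithelia. Both regions at its canonical TSS were shared. That with the p63 summit 862 bp upstream had 38 CTR reads and 46 p63 reads, and that in intron 1 had 35 and 36. The 3 p63-only regions all lay 29.7 to 43.3 kb upstream and were nearer to the TSS of B4GALNT4 than to that of PKP3. The farthest, chr11:350822-351062, had 9 CTR reads (4.12 to 17.1) and 41 p63 reads (29.4 to 55.6), with a local background of 2.03 and 2.09 reads. Its ratio of summit reads, 4.56, was above that of 99.7% of all paired regions. At chr11:364258-364726 the reads were 19 (11.4 to 29.7) and 47 (34.5 to 62.5). The intervals were apart at both of these regions, but they overlapped at chr11:361835-362295, which had 20 and 30 reads and a CTR peak just under the threshold (−log10 q of 9.43). By −log10 q, the strongest regions were chr11:355604-356409 in the CTR list, 38.1 kb upstream with 61 CTR and 54 p63 reads, and chr11:448115-448706 in the p63 list, near PTDSS2 with 91 p63 and 73 CTR reads. The CTR-only region, chr11:406796-407624 beyond the end of the gene, had 21 CTR reads (13 to 32.1) and 10 p63 reads (4.8 to 18.4).

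DSP (ENSG00000096696.16, chr6:7541338-7586714, plus strand) encodes desmoplakin, the plakin that links the plaque to keratin filaments. Of its 8 regions in the p63 list, 7 were shared and 1 was p63-only. The promoter regions had intervals that overlapped between the lists, with 47 CTR reads (34.5 to 62.5) and 44 p63 reads (32.0 to 59.1) next to the canonical TSS. In intron 1, at 1.45 kb from that TSS, the counts were 33 and 38. The region of highest −log10 q in both lists, 12.9 kb upstream at chr6:7528592-7529206 in the CTR list, had 64 CTR reads and 54 p63 reads. Only the region at chr6:7553650-7554001 in intron 1, 12.2 kb from the TSS, departed from this pattern, with 7 CTR reads (2.81 to 14.4) and 36 p63 reads (25.2 to 49.8). Its ratio of 5.14 was the highest among the paired regions of the 8 genes and above 99.8% of all paired regions. Its fold enrichment was 3.67 and 13.6, and the site beside its summit had 4 mismatches. At 36.1 kb upstream, a shared region with 23 CTR and 45 p63 reads contained a site of 3 mismatches, chr6:7505702-7505721, at 177 bp from the p63 summit.

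PPL (ENSG00000118898.16, chr16:4882507-4960741, minus strand) encodes periplakin, which dimerises with envoplakin in the cornified envelope. Its p63 list held 10 regions, 7 of them shared, and its CTR list 6, all shared. The p63-only region nearest to the canonical TSS, chr16:4935260-4935618, lay in intron 1 at 1.74 kb from that TSS. It had 16 CTR reads (9.15 to 26.0) and 34 p63 reads (23.5 to 47.5), intervals that overlapped slightly. Deeper in intron 1, at 14.4 kb, chr16:4922589-4922933 had 20 p63 reads (12.2 to 30.9) and no CTR peak, and its site of 2 mismatches lay 22 bp from the summit. A region without CTR peak beyond the gene, chr16:4855323-4855711, had 24 p63 reads (15.4 to 35.7) and was 7.96 kb from the TSS of UBN1. Its site of 3 mismatches, chr16:4855473-4855492, lay 40 bp from the summit. The strongest region of both lists lay 6.3 kb upstream of the canonical TSS, within the span of longer PPL transcripts, at chr16:4943157-4943658 in the CTR list, and had 98 CTR reads (79.6 to 119) and 109 p63 reads (89.5 to 131). Apart from the region near the canonical TSS, the paired regions of PPL had ratios of summit reads between 0.863 and 1.12, and the median over all 7 was 1.

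EVPL (ENSG00000167880.8, chr17:76004502-76027306, minus strand) encodes envoplakin, the partner of periplakin. It had 5 CTR regions, all shared, and 9 p63 regions. Its promoter region, chr17:76027267-76027673, had its summit 234 bp upstream of the canonical TSS with 29 p63 reads (19.4 to 41.6) at 6.55-fold enrichment (−log10 q of 14.9), and overlapped no CTR peak. Its other region without a CTR peak, chr17:75996643-75996997, had 41 reads (29.4 to 55.6) and a −log10 q of 29.5, and lay beyond the end of EVPL and 3.96 kb from the TSS of CDK3. Close to it, chr17:75998466-75998682 had 8 CTR reads (3.45 to 15.8) and 22 p63 reads (13.8 to 33.3). At 27.0 kb upstream, chr17:76053642-76054390 had 13 and 16 reads over a local background of 1.66 and 1.21, with a −log10 q of 6.37 and 11.3, so that this call rests on a difference of few reads. The strongest region of both lists, chr17:75978754-75980057 in the CTR list, was a promoter of the neighbouring TEN1-CDK3 locus with 112 CTR and 122 p63 reads. No region of EVPL had a site of at most 3 mismatches.

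PERP (ENSG00000112378.12, chr6:138088505-138107419, minus strand) had 3 regions in each list, all shared. The promoter region, chr6:138106950-138107837 in the CTR list, had 52 CTR reads (38.8 to 68.2) and 61 p63 reads (46.7 to 78.4). The region at the end of the gene, 18.9 kb from the TSS, was the strongest in both lists, with 67 CTR reads (51.9 to 85.1) and 75 p63 reads (59.0 to 94.0). The region 8.67 kb upstream had 15 and 17 reads. All 3 were somewhat higher in the p63 list, with ratios of 1.12 to 1.17, and their intervals overlapped. The best p53/p63 family site in any of the 8 windows lay in an intron of PERP, 3339 bp from the TSS, with 1 mismatch, and no peak of either list overlapped it at any threshold. PERP was thus open at its promoter with KLF4 alone, and no region was called open only in the presence of ΔNp63α.

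Over all 8 genes, 61 regions had a peak in both lists with at least 1 of them at the threshold. Summit reads were higher in the p63 list at 45, equal at 3 and lower at 13 (73.8% higher), beside 49.8% higher over all 62127 paired regions. They were at least 2 times higher in the p63 list at 11 of the 61, beside 5.16% of all. In the CTR list they were at least 2 times higher at 2, beside 2.41%. All of the 11 were p63-only calls and the 2 were CTR-only calls, so these counts largely restate the calls. The intervals were apart and higher in the p63 list at 8 of the 61, beside 3.60% of all. These were 4 regions of PKP1, 2 of PKP3, 1 of DSP and 1 of JUP. All but that of JUP were p63-only, so the threshold that selected them bears on these gaps. In 1 of the PKP1 pairs, in intron 2, the CTR and p63 summits lay at different places. None of the 61 was apart in the opposite direction, beside 0.378% of all. Read by fold enrichment the shift was small. The median log2 ratio of summit reads was 0.28 at the 8 genes and 0.00 over all paired regions, that of fold enrichment was 0.11 and 0.05, and that of the local background was 0.26 and −0.06. Of the 12 regions whose local background was at least 1.5 times higher in the p63 list, 9 were at PKP1. Neighbouring regions there can share this background. None of the 61 had a background lower by as much.

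**Figure D5:**
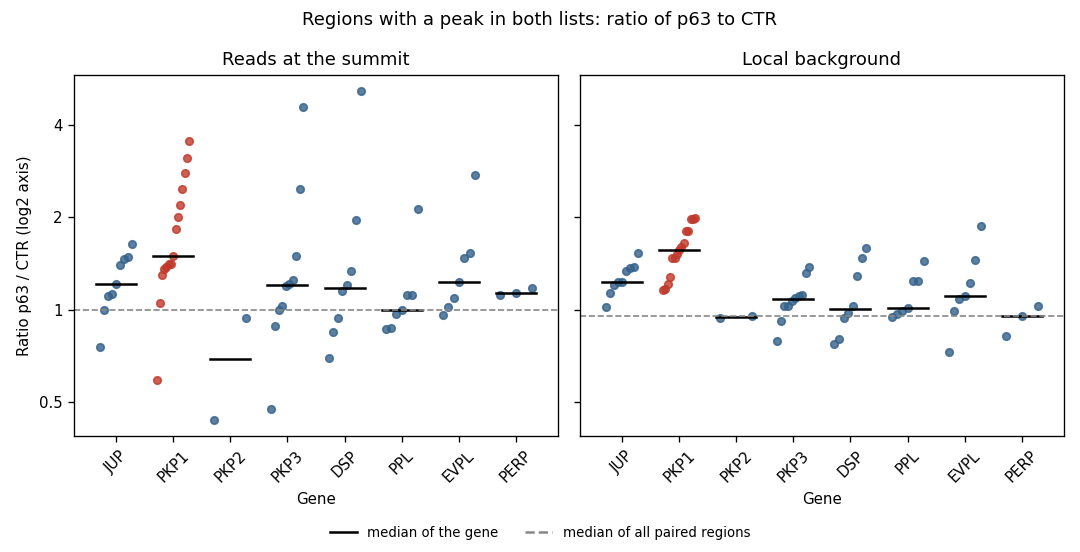
Ratio of p63 to CTR (log2 axis) of summit reads and of the local background for each of the 61 paired regions, by gene, with the median of the gene as a black bar and the median of all paired regions as a dashed line. PKP1, in red, has median ratios of 1.5 and 1.57, and the highest ratios of summit reads, 5.14 and 4.56, belong to single regions of DSP and PKP3.

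The p53/p63 family site was examined next. Within 100 bp of the summit, 4 of the 23 p63-only regions (17.4%) held a site of at most 3 mismatches, beside 11.4% of all p63-only regions, and none of the 43 shared p63 regions did, beside 1.39% of all shared regions. Of these 4 regions, 3 were without any CTR peak (2 at PPL, 1 at PKP2) and 1 was at PKP1. Seen from the sites, the windows of the 8 genes contained 112 sites of 0 to 3 mismatches, of which 6 lay in a region of the p63 list (5.36%), beside 3.25% of 134349 sites in the genome. No site of the windows lay in a region of the CTR list, beside 1.30% in the genome. PKP3, with 41 sites, had the most, and none of them lay in a peak. The 6th site lay in a shared region of JUP, chr17:41718174-41718193, 586 bp from the p63 summit. Below the threshold, a PKP1 peak of the p63 list with a −log10 q of 3.61 and no CTR peak held a site of 2 mismatches at chr1:201254022-201254041.

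Other motifs were counted in the same stretches. The KLF motif, searched on both strands as GGGCGGGGC, GGGCGTGGC, GGGTGGGGC or GGGTGTGGC within 100 bp of the summit, was found in 10 of the 43 shared p63 regions (23.3%), beside 8.11% of all shared regions. These stretches were rich in G and C, with a median of 61.7% against 50.7% of all shared regions. Among the p63-only regions the KLF motif was found in 3 of 23 (13%), beside 4.07% of all p63-only regions. These 3 were the EVPL promoter, the PPL region in intron 1 at 1.74 kb from the canonical TSS and the PKP1 region chr1:201361430-201362017 beyond the gene. The AP-1 motif, TGACTCA or TGAGTCA, was found in 13 of the 43 shared regions (30.2%, beside 26.4% of all) and in 1 of the 23 p63-only regions (4.35%, beside 22% of all). The TEAD motif, searched on both strands as ACATTCCA, ACATTCCT, GCATTCCA or GCATTCCT, was found in 1 of the 43 shared regions (2.33%, beside 8.35% of all) and in 1 of the 23 p63-only regions (4.35%, beside 7.9% of all). RefSeq promoters of GRCh38 matched 4 of the 8 genes, and the KLF motif was present in those of DSP, JUP and PERP and not in that of PKP1, beside 18.4% of 35116 promoters.

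Related genes were counted with the same window rule. In the windows of 5 other armadillo genes (CTNNB1, CTNND1, CTNND2, ARVCF, PKP4), 5 of 28 p63 regions were p63-only (17.9%) and 6 of 29 CTR regions were CTR-only (20.7%). In those of 4 other plakin or plakin-repeat genes (DST, MACF1, PLEC, EPPK1), the counts were 21 of 75 (28%) and 9 of 63 (14.3%). For CDSN, KAZN, PNN and TMEM47 they were 2 of 16 (12.5%) and 4 of 18 (22.2%), and for the intermediate filament genes VIM, KRT5 and KRT14 they were 7 of 24 (29.2%) and 1 of 18 (5.56%). For the 7 desmosomal cadherin genes the lists as analysed here held 0 regions at the threshold, and closed chromatin and missing peaks cannot be told apart there. Each of these shares lies on small counts, and none was tested against those of the 8 genes.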

How the data were processed

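ATAC-seq was performed by the authors on 4 samples of BJ fibroblasts, 2 expressing KLF4 alone (CTR) and 2 expressing ΔNp63α with KLF4 (p63). Groups were taken from the sample labels. Per the study's methods and the submitters' processing notes, reads were mapped to hg38 with Bowtie2 2.3.4.3 and MACS2 was used to call peaks from the replicates of each group. Options of MACS2, removal of duplicates, read shift and mapping filter were not given in the sources used here, and each of them could change the reads at a summit. The deposited lists themselves do not show whether the pair of inputs they name were these replicates or mates.

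The deposited lists give a fold enrichment for each peak, which is the ratio of the summit pileup to the local background, each plus 1, followed by the −log10 p, the −log10 q and the summit position. These values were not scaled between the lists by the authors, and each list stands for a whole group, so depth per sample is unknown. Peaks on chromosomes 1 to 22, X and Y were used, which left out 2558 CTR and 2808 p63 peaks. Reads and local background at the summit were solved from the fold enrichment and the −log10 p, and whole reads were recovered within 0.01 of the −log10 p for 99.98% of peaks in both lists. The solving, overlap and site search were tested on simulated data.

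Overlap meant at least 1 bp. Paired regions were merged over both lists, with the strongest peak of each list kept. Annotation was GENCODE release 44, distances refer to the canonical transcript, and coordinates are 1-based on GRCh38. Python 3.11.15, pandas 2.3.3, scipy 1.17.1 and pysam 0.24.0 were used. For each gene, regions were named when they were nearest the canonical TSS within 3 kb, list-only, strongest of a list or held a site of at most 3 mismatches, or were peaks below the threshold that overlapped a list-only region or held such a site. The strongest region was that with the highest −log10 q. The genes, lists and rules were chosen with earlier results of these data known.

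Alternatives were other thresholds, windows, overlap rules, peak numbers, site rules and scales, and leaving out PKP1, which was chosen after seeing the data. A marker gene and the sequences of some regions are not reported here.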

Additional observations from a re-analysis of the deposited data

How the results depend on the processing

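No paired analysis was possible because the lists hold 1 value per group and no column for a replicate, and for the same reason leave-one-out fits were not run. Of 67 recomputed values, 44 stayed close (a count within 1.5 times, a share within its interval, or a fold enrichment ratio within 0.1 on the log2 scale). The main values were 23 p63-only and 4 CTR-only regions, 8 without a CTR peak, 4 with a site and a median log2 ratio of fold enrichment 0.06 above that of all paired regions. With all deposited peaks, 29 of 110 p63 peaks were p63-only, without a CTR peak (26.4%, beside 27.1% of all). Of 88 CTR peaks, 10 were CTR-only (11.4%, beside 21.4% of all). When the −log10 q threshold was raised to 20, 15 of 40 p63 regions were p63-only (37.5%, beside 24.6% of all). There, 2 regions were without a CTR peak, 1 p63-only region had a site, and the ratio became −0.04. With a window of 25 kb, 15 of 46 p63 regions were p63-only (32.6%, beside 23.9% of all). With 100 kb, the p63-only share was 29.9%, beside 23.9% of all, and 8 of 75 CTR regions were CTR-only (10.7%, beside 16.5%). There, 13 regions were without a CTR peak, and the ratio became −0.01. In the gene body only, 7 of 26 regions were p63-only (26.9%, beside 23.9% of all) and 2 of 19 CTR-only (10.5%, beside 16.5%). There, 2 regions were without a CTR peak and 2 p63-only regions had a site. When even a weak peak of the other list counted as a match, the p63-only regions were 8 (12.1%, beside 12% of all). The CTR-only regions were then 0 (0%, beside 3.29%). Thus the p63-only share lay near that of all regions under this rule and with all deposited peaks. When 50% of both peaks had to overlap, the p63-only share was 40.9%, beside 27.6% of all. There were then 7 CTR-only regions (15.2%, beside 20.4%) and 16 p63 regions without a CTR peak that overlapped to this extent. The p63-only regions with a site were 1 at 2 mismatches and 9 at 4 mismatches. With summit reads in place of fold enrichment the ratio was 0.28. Without PKP1, chosen after seeing the data, there were 13 p63-only regions (25.5%, beside 23.9% of all) and 2 CTR-only regions (5.13%, beside 16.5%). The sign of the fold enrichment ratio is therefore not settled by these lists, and the cause of these changes was not tested.

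The lowest region at the threshold had 15 reads. Places with fewer reads entered only when all deposited peaks were counted, with 29 p63-only regions (26.4%, beside 27.1% of all).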
